A study of Mesocricetus auratus with 6 samples.

Results

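Cytosolic ribosomal protein genes encode the proteins of the ribosomes that translate nuclear-encoded mRNA. Members were chosen by symbol, as every gene of the deposited tables named Rpl, Rps or Rplp with a number, after which at most 1 letter and 1 further digit may stand, together with *Rpsa* and *LOC121134231*, which is a second gene for ribosomal protein S27. The rule found 80 of 31593 genes. Of these, 45 encode proteins of the large subunit, 32 encode proteins of the small subunit, and 3 (*Rplp0*, *Rplp1* and *Rplp2*) encode the stalk, the flexible arm of the large subunit that recruits elongation factors.

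A ribosome holds most of its proteins in a single copy, so their genes are known for being expressed together and at high level in nearly every cell. Their mRNAs carry a terminal oligopyrimidine start through which growth signals regulate translation. Mammalian genomes also hold paralogs and intronless copies of many of these genes, and some paralogs are known for expression in particular tissues.

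RNA-seq was made from cortex, the suprachiasmatic nucleus (SCN, the site of the circadian pacemaker) and liver of Syrian hamsters killed at circadian time (CT) 15. The *duper* hamsters carried a frameshift allele of *Cry1* and came from crosses of "super *duper*" animals to the Lakeview (LVG) ecotype, through ancestors found to lack *tau*. Wild-type hamsters were of the LVG ecotype, and all animals had been raised on 14 h of light and 10 h of dark. The 6 deposited libraries comprised 1 for every combination of genotype and tissue. For cortex and SCN, RNA of 4 hamsters had been mixed, and for liver the reads of 4 single-animal libraries had been merged. The study describes 4 animals per genotype for all 3 tissues, so the tissue libraries that stand in for replicates in the genotype test share animals, and its p-values do not rest on independent animals. The *duper* animals were 4 females, and the wild-type animals were 2 females and 2 males. Genotype, breeding line and sex therefore cannot be told apart fully in any value below, and no tissue has a replicate within a genotype.

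Estimated counts totalled 6788947 to 85748562 per library, lowest in wild-type cortex and highest in *duper* liver. *Cry1*, the mutated gene, had 33.3, 22.9 and 16.8 TPM (a level per transcript length, scaled to the same total in every library) in wild-type cortex, SCN and liver. In *duper* cortex, SCN and liver it had 8.56, 8.14 and 5.44 TPM. Its counts, from libraries of unlike depth, were 244, 831 and 1680 in wild type and 88, 69 and 654 in *duper*. Its genotype log2 fold change was −1.69 (SE 0.17, adjusted p = 0.131 by edgeR's quasi-likelihood test). The 8 cortex markers summed to 2135 to 2423 TPM in cortex and to at most 198 in SCN. The 7 SCN markers measured, of 10 listed, summed to 68.6 to 110 TPM in SCN and to at most 29.2 elsewhere, and *Nms* was at 0 outside SCN. Of these, *Rora* (12.6 and 12.6 TPM in SCN, 19.96 and 19.3 in cortex) and *Prok2* (0.529 and 0.237 in SCN, 0.563 and 0.476 in cortex) were not higher in SCN than in cortex. The 10 liver markers summed to 132580 and 145239 TPM in liver and to at most 144 in the brain libraries. The 10 most abundant genes took 22.8% and 24.9% of the liver counts, against 2.91% to 3.71% in the brain libraries.

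Of the 80 members, 78 had counts in every library. *Rpl10l*, an intronless relative of *Rpl10* known from testis, had 0 counts in all 6 libraries, and *Rpl3l*, the striated-muscle form of *Rpl3*, had at most 2. The members together made 3.97% of all TPM in wild-type cortex and 3.82% in *duper* cortex. They made 5.22% and 5.15% in wild-type and *duper* SCN, and 3.52% and 3.89% in wild-type and *duper* liver. By this share of TPM, SCN stood above the other tissues in both genotypes. The order depends on the scaling, since the summed level had a log2 ratio of liver over brain of −0.28 in TPM and 0.93 after TMM rescaling. Large subunit genes took 47.3% to 52.0% of the summed TPM and small subunit genes 41.8% to 44.1%. The 3 stalk genes took 6.42% and 6.12% in wild-type and *duper* cortex and 6.96% and 6.59% in SCN, against 7.28% and 8.53% in liver, so their share was lowest in cortex and highest in *duper* liver.

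Levels per gene fell into an upper and a lower group, with no mean between 161 and 285 TPM. Of the 78 members, 66 had a mean of 200 TPM or more over the 6 libraries, and 12 had a mean under 200, from 161 TPM down. The highest was *Rplp1* (P1 of the stalk), with 1409, 1301, 1900, 1780, 1393 and 1906 TPM in wild-type cortex, *duper* cortex, wild-type SCN, *duper* SCN, wild-type liver and *duper* liver. *Rps29*, *Rps24*, *Rpl19* and *Rpl21* followed with means of 1048, 996, 986 and 956 TPM. The lowest was *Rps15a*, a small subunit protein, with a mean of 34.6 TPM, followed by *Rpl27*, *Rpl31*, *Rpl11* and *Rps21* with means of 39.5, 43.8, 51.2 and 55.5 TPM. *Rps27*, *Rpl18*, *Rpl32*, *Rpl22*, *Rpl22l1*, *Rps27l* and *Rpl7l1* completed the lower group. These are levels of the named entry alone, since a copy of any member that bears another symbol was not counted with it.

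The order of levels was shared between tissues. Across the 78 members, Spearman's rho of tissue means was 0.97 between cortex and SCN, 0.82 between cortex and liver and 0.86 between SCN and liver. Between genotypes it was 0.96 in each tissue. These are correlations across genes that share libraries and transcript lengths, and genes are not independent replicates. For 62 members the highest library was under 2 times the lowest in TPM, and the median of that fold was 1.63. It was over 3 for 8 members, all 8 of them in the lower group: *Rps27* (15.8), *Rps15a* (5.65), *Rps21* (4.70), *Rps27l* (4.55), *Rpl22l1* (3.99), *Rpl18* (3.79), *Rpl31* (3.52) and *Rpl22* (3.13). These folds hold for TPM only and are not set beside those of all genes. With the TMM scaling used below, the members' median log2 fold change of liver over brain was 1.28. The lower group also had the fewest counts, down to 23 in a library against 162 or more in the upper group.

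**Figure D1:**
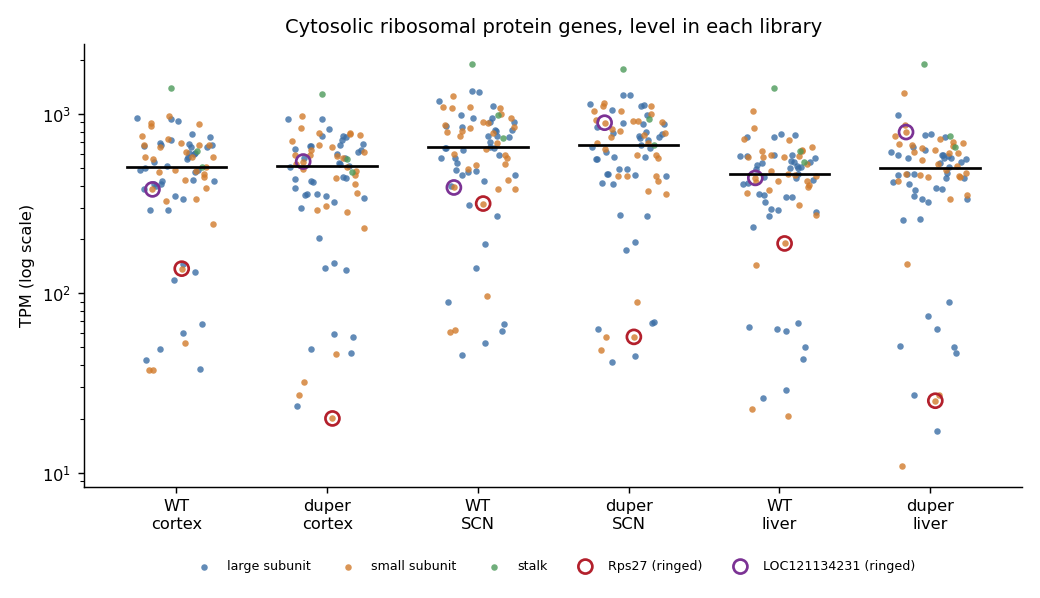
Level of each of the 78 members with counts in every library, in TPM on a log scale, with 1 column per library, colours for subunit and a black bar at the median. Medians ran from 455 TPM in wild-type liver to 665 TPM in *duper* SCN, and ringed *Rps27* lay lower in each *duper* library than in the wild-type library of the same tissue.

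The genotype comparison asked whether loss of *Cry1* function was accompanied by a change in these genes. Of the 78 members tested, 1 was called, *Rps27*, which fell. It was also the only call among all 18275 genes tested, a background of 0.00547% (edgeR's quasi-likelihood test with tissue in the model, adjusted p under 0.05 and log2 fold change beyond 0.58). The study had already picked *Rps27* from the same genotype comparison of these data, so the call is not independent evidence. An alternative, DESeq2 with size factors, called 41 of 21072 genes, among them *Rps27* and *LOC121134231*. With edgeR no other member passed the test, and most lay close to 0. The median genotype log2 fold change was 0.06 over members and 0.01 over all genes, and 69 of 78 members lay within 0.2 of 0, against 11443 of 18275 genes. Leaving out *Rps27* and *LOC121134231*, the SD of the log2 fold change was 0.14 over 76 members. Over all 78 it was 0.35, against 0.41 over all genes.

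The sign of the small median depended on the liver libraries and on the scaling. Of the 78 members, 63 had a genotype log2 fold change above 0, but 19 did when either liver library was left out, 41 with library size alone and 36 relative to the members' total. Taken tissue by tissue on the scale of log2(TPM + 1), *duper* members differed from wild-type members by a median of −0.07 for cortex, −0.05 for SCN and 0.11 for liver. Over all genes averaging 1 TPM or more these medians were 0.02, 0.02 and −0.10. So the members lay slightly below the other genes in the brain libraries and above them in liver, where 65 of 78 ratios were positive. With 1 library per arm there is no test within a tissue. In the same livers the macrophage markers, 9 of 10 measured, summed to 729 TPM in wild type and 1199 in *duper*, with none at 0, and their part in the liver ratio was not tested. In bulk RNA, more cells of a kind and more RNA per cell cannot be told apart.

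Spread was small at high level and larger at low level. The SD of the genotype log2 fold change was 0.08 over the 65 members with a mean of 200 TPM or more (*LOC121134231* left out), and 0.30 over the 11 below it (*Rps27* left out). Among genes averaging 100 TPM or more, the within-tissue ratios of members had an SD of 0.17 in cortex, 0.12 in SCN and 0.12 in liver when *Rps27* and *LOC121134231* were left out. With no member left out, these SDs were 0.18, 0.35 and 0.39. All genes of that level, from which none was left out, had SDs of 0.23, 0.34 and 0.73, so the members' smaller SD in SCN rested on leaving out the S27 pair. Past a log2 ratio of 0.58 there were 0 higher and 3 lower members in cortex, against a background of 16.0% of all genes (8.24% higher, 7.75% lower). In SCN there were 1 higher and 1 lower, against 14.4% (6.67% higher, 7.70% lower), and in liver 1 higher and 3 lower, against 15.3% (4.75% higher, 10.5% lower). These backgrounds include many genes of lower level than most members. Among genes averaging 100 TPM or more, the shares past 0.58 were 1.45% of members and 1.73% of all genes in cortex. They were 2.86% and 1.83% in SCN, and 2.94% and 17.5% in liver, so in brain the members were close to other genes of that level. Scaled to the members' own total, an alternative added after seeing the data, the genotype test called 0 members higher and 1 lower, against 0.0219% and 0.0274% of all genes.

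**Figure D2:**
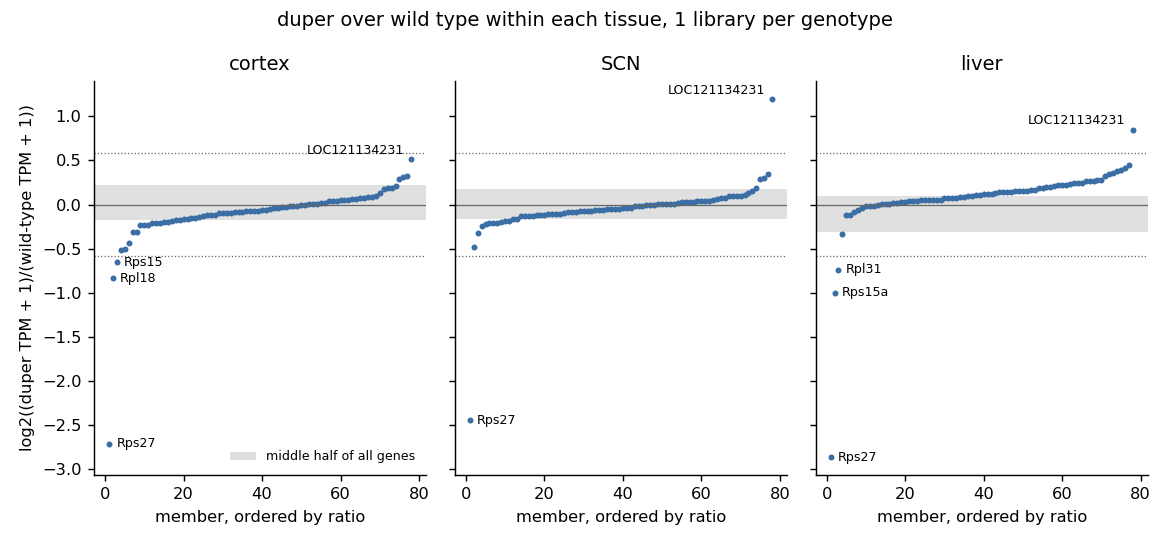
Log2 ratio of *duper* over wild-type TPM (each plus 1) for the 78 members, ordered by ratio within cortex, SCN and liver, with 1 library per genotype. The grey band is the interquartile range of all genes and the dotted lines are at 0.58 in either direction; *Rps27* is the lowest point in each tissue (−2.72, −2.45 and −2.87) and *LOC121134231* the highest (0.52, 1.20 and 0.85).

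Among the large subunit genes, no genotype difference passed the test. *Rpl18* had 42.8, 89.0 and 65.0 TPM in wild-type cortex, SCN and liver, and 23.5, 63.2 and 51.2 in *duper*, lower in *duper* in all 3 tissues (log2 fold change −0.47, SE 0.18, adjusted p = 0.998 by edgeR). *Rpl17* had 605, 809 and 465 TPM in wild type and 750, 997 and 582 in *duper*, higher in all 3 (log2 fold change 0.37, SE 0.11, adjusted p = 0.998 by edgeR). *Rpl31* had 59.8, 53.0 and 29.0 TPM in wild type and 59.6, 44.6 and 16.96 in *duper*, so its log2 fold change of −0.30 (SE 0.24) came mostly from liver. *Rpl32*, *Rpl11* and the paralog *Rpl22l1* had log2 fold changes of 0.33 (SE 0.14), 0.28 (SE 0.16) and 0.22 (SE 0.16), and that of *Rpl22l1* was 0.023 without either liver library. Among the small subunit genes, *Rps15a* had 37.2, 61.1 and 22.7 TPM in wild type and 27.2, 48.4 and 10.8 in *duper* (log2 fold change −0.58, SE 0.26, adjusted p = 0.998 by edgeR). For *Rps15*, the values were 486, 523 and 424 TPM in wild type and 307, 450 and 447 in *duper* (log2 fold change −0.19, SE 0.18), and the difference was seen in the brain libraries only. Its sign turned when either cortex library was left out (0.01 and 0.02). The 3 stalk genes had log2 fold changes of 0.07 to 0.14.

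Ribosomal protein S27 is a zinc-finger protein of the small subunit and was measured here by a pair of genes with the same product and by the paralog *Rps27l*. *Rps27* spans 1228 bases for a transcript of 451 bases and therefore has introns. *LOC121134231* spans 339 bases, the same as its transcript, so it is annotated without an intron. Apart from *Rpl10l* it was the only member of which this held.

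The S27 genes exchanged shares between genotypes in every tissue. *Rps27* had 137, 317 and 190 TPM in wild-type cortex, SCN and liver, and 20.04, 57.2 and 25.2 in *duper*. Every *duper* library lay below every wild-type library. In counts these were 101, 1182 and 1944 in wild type and 23, 51 and 317 in *duper*. The genotype log2 fold change was −2.66 (SE 0.16, adjusted p = 0.0258 by edgeR's quasi-likelihood test), and the adjusted p was 0.125 without the wild-type cortex library and 0.119 without the *duper* cortex library.

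*LOC121134231* went the other way. It had 381, 390 and 441 TPM in wild-type cortex, SCN and liver and 545, 897 and 796 in *duper*, again without overlap between genotypes. Its log2 fold change was 0.93 (SE 0.15, adjusted p = 0.390 by edgeR), which did not pass the test. Over the alternatives run its adjusted p ranged from 0.00970 to 0.639, and 4 of 13 called it, among them DESeq2 with size factors and edgeR without the *duper* liver library. Its share of the pair's TPM was 73.5%, 55.1% and 69.9% in wild-type cortex, SCN and liver, and 96.5%, 94.0% and 96.9% in *duper*. In shares of counts, wild-type cortex had 61.4% (95% Clopper-Pearson interval 55.4% to 67.5%) and *duper* cortex 94.0% (91.1% to 96.2%), intervals that cover counting error only.

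The sum of the pair did not pass the test. It was 518, 708 and 631 TPM in wild-type cortex, SCN and liver, and 565, 955 and 821 in *duper*. When both genes were replaced by their summed counts in the whole table, the genotype log2 fold change was 0.11 (SE 0.12, adjusted p = 0.998 by edgeR), and no gene of the table was called. The summed TPM differed more between genotypes than the summed counts, since a count is worth more TPM on the shorter transcript, whose effective length was 133 to 138 bases, against 232 to 240 for *Rps27*. Reads that match both transcripts were divided between them by the quantifier, so the values of each gene alone are less certain than their sum. Whether an exchange of reads or of transcripts lies behind the shares was not tested. *Rps27l* had 37.2, 62.7 and 143 TPM in wild-type cortex, SCN and liver and 32.0, 57.3 and 146 in *duper*, with a genotype log2 fold change of −0.01 (SE 0.15).

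**Figure D3:**
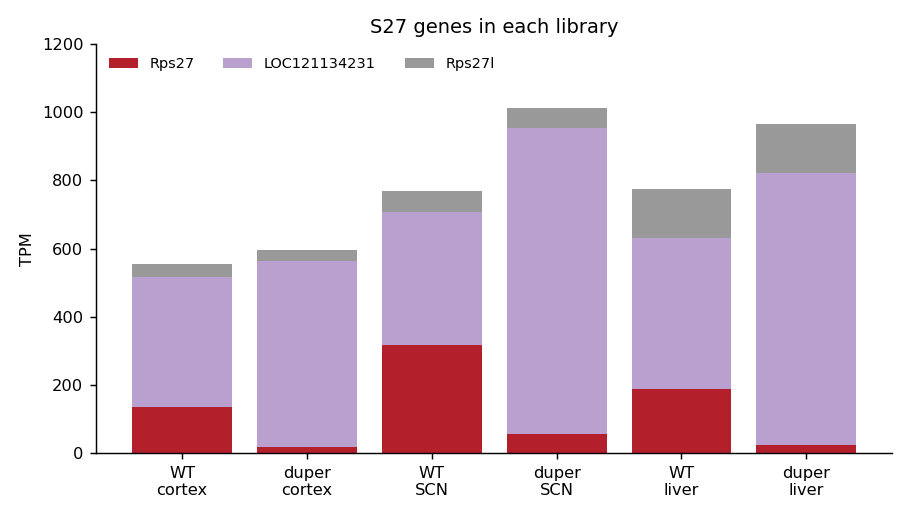
Stacked TPM of the 3 genes for S27 in each library. The red part, *Rps27*, was 137 to 317 TPM in wild-type libraries and 20.04 to 57.2 in *duper* libraries, while the pair with *LOC121134231* summed to 518 to 955 TPM; the grey part, *Rps27l*, was larger in liver.

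Liver was compared with the mean of the brain tissues, the genotypes standing in for replicates. Whether the members as a family were higher or lower in liver depended on the scaling. With TMM scaling, 72 of 78 members were called higher and 0 lower, against a background of 33.3% called higher and 34.1% lower among all genes, and the median log2 fold change was 1.28. With library size alone, 6 were called higher and 7 lower with a median of 0.06, and 13634 of 18275 genes were called either way. On log2(TPM + 1) with limma, 2 were called higher and 16 lower with a median of −0.30, and 14377 of 18275 genes were called either way. The median of all genes moved from −0.000698 with TMM to −1.21 with library size and −1.16 with TPM, and relative to it the members lay higher by 1.28, 1.27 and 0.86. In these livers the 10 most abundant genes took 22.8% and 24.9% of the counts, and the TMM factors were 0.539 to 0.606, against 1.24 to 1.41 in the brain libraries. The family's direction is therefore given only relative to the other genes.

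Differences among members were therefore also taken relative to the members' total. On this scale, 4 of 78 members were called higher in liver and 8 lower, against 13.9% higher and 61.2% lower among all genes, and 36 of 78 lay within 0.2 of 0. By construction this scaling centres the members (median 0.01) and moves all genes (median −1.26). The shares over all genes therefore cannot show whether the members were unusually even. The members varied more between liver and brain (SD 0.48 on the log2 scale) than between SCN and cortex (SD 0.25). Of the 12 called, 7 belonged to the lower group of levels.

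*Rps27l* was the member with the largest rise in liver under both TMM and the members' total. Its TPM was 37.2 and 32.0 in wild-type and *duper* cortex and 62.7 and 57.3 in SCN, compared with 143 and 146 in liver, and both liver libraries lay above all brain libraries. Relative to the members' total the log2 difference was 1.98 (SE 0.18, adjusted p = 1.38e-05 by edgeR), and with TMM it was 3.24 (SE 0.15). *Rpl10*, a large subunit protein near the peptidyl transferase centre, had 385 and 385 TPM in cortex and 648 and 561 in SCN, against 745 and 990 in liver. Its log2 difference relative to the total was 1.14 (SE 0.16, adjusted p = 0.000172 by edgeR). *Rpl7a* and *Rps29* followed with 0.67 (SE 0.14) and 0.59 (SE 0.15).

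The members that were lower in liver relative to the total were 4 large subunit and 4 small subunit genes. *Rpl22*, an RNA-binding protein that is dispensable for translation in most cells, had 146 and 147 TPM in wild-type and *duper* cortex and 190 and 193 in SCN, compared with 61.6 and 63.2 in liver. Its log2 difference relative to the total was −1.12 (SE 0.16, adjusted p = 0.000181 by edgeR), with the genotypes nearly equal in each tissue. *Rpl22l1*, its paralog, had 132 and 136 TPM in cortex and 272 and 270 in SCN, against 68.1 and 89.9 in liver, with a log2 difference of −0.96 (SE 0.16, adjusted p = 0.000655 by edgeR). With TMM both were slightly higher in liver and not called (0.15, SE 0.11, and 0.31, SE 0.16). These values rested on single liver libraries: without wild-type liver, *Rpl22l1* was at 0.62 and called (adjusted p = 0.00604 by edgeR), and *Rpl22* at 0.30 (adjusted p = 0.0342 by edgeR, under the fold threshold). Without *duper* liver they were at 0.060 and 0.077. *Rps21*, at 53.2 and 45.8 TPM in cortex, with 96.7 and 89.4 in SCN but only 20.6 and 27.1 in liver, had the lowest log2 difference, −1.20 (SE 0.29). *Rps15a*, *Rpl31*, *Rpl32*, *Rpsa* and *Rps20* followed with −1.06 (SE 0.34), −0.95 (SE 0.31), −0.71 (SE 0.18), −0.64 (SE 0.16) and −0.59 (SE 0.16). These genes are named by this added scaling, after their values were seen.

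**Figure D4:**
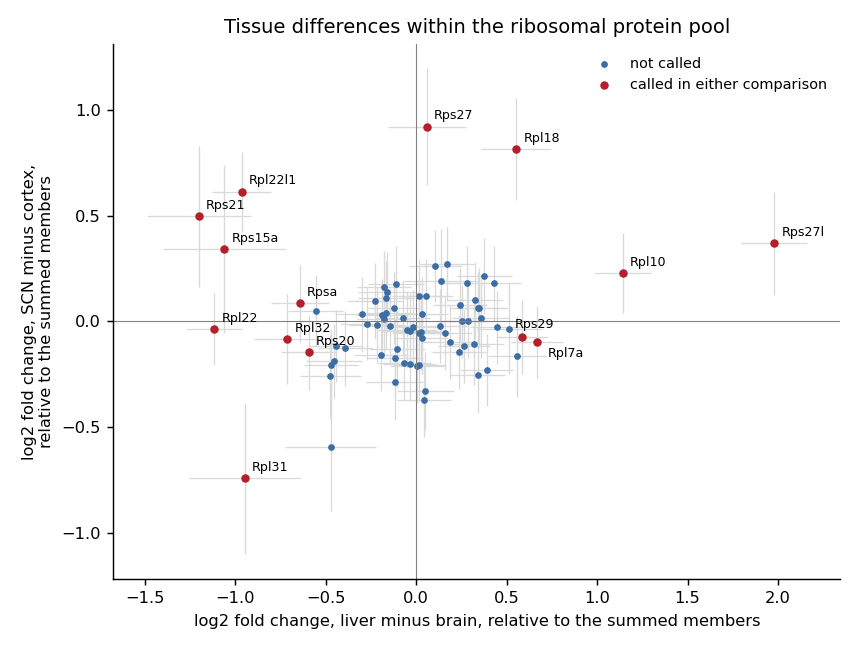
Each of the 78 members by its log2 difference between liver and brain (horizontal) and between SCN and cortex (vertical), both relative to the members' summed counts, with SE bars and with members called in either comparison in red. *Rps27l* (1.98) and *Rpl10* (1.14) lie far right, *Rps21* (−1.20) and *Rpl22* (−1.12) far left, and most members near the centre; other scalings shift all points together.

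Within brain, nearly all members had higher values in SCN than in cortex, and few of these differences passed the test. With TMM, 5 of 78 were called higher and 0 lower, against a background of 3.91% called higher and 7.28% lower, and 76 of 78 had a log2 fold change above 0 with a median of 0.41 (0.02 over all genes). The log2 ratio of the family's summed level was 0.41 in TPM, 0.60 in counts and 0.24 after TMM rescaling. The median of members exceeded that of all genes by 0.37 to 0.41 with every other tool, scaling and filter run. The number called was less stable, and so was the number among all genes (2045 of 18275 with TMM). It was 33 with library size alone (2439 of 18275 genes) and 14 without either liver library (3564 of 17577 and 3573 of 17597 genes). It fell without any 1 brain library, which leaves 1 library of a compared tissue. The cortex libraries had 6788947 and 10391925 counts and the *duper* SCN library 7248840.

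The 5 members called were *Rps27*, *Rpl18*, *Rpl22l1*, *Rpl6* and *Rps3a*. *Rps27* had a log2 fold change of 1.33 (SE 0.21, adjusted p = 0.00997 by edgeR), on the values given above for each genotype. For its sum with *LOC121134231* it was 0.70 (SE 0.15, adjusted p = 0.0294 by edgeR). *Rpl18*, a large subunit protein, went from 42.8 and 23.5 TPM in cortex to 89.0 and 63.2 in SCN (1.24, SE 0.23, adjusted p = 0.0181 by edgeR). *Rpl22l1* rose by 1.04 (SE 0.20, adjusted p = 0.0197 by edgeR) from 132 and 136 to 272 and 270 TPM, with no overlap and with the genotypes close together. For *Rpl6* and *Rps3a* the log2 fold changes were 0.69 (SE 0.15) and 0.60 (SE 0.15), with adjusted p = 0.0316 and 0.0489 by edgeR. Relative to the members' total, 2 were called higher, *Rps27* (0.92, SE 0.28) and *Rpl18* (0.82, SE 0.24), and 0 lower, against 1.94% and 19.4% of all genes, and 56 of 78 lay within 0.2 of 0. Here too the scaling by construction centres the members (median −0.02) and moves all genes (median −0.41). Marker lists also moved between these tissues. The 3 oligodendrocyte markers measured, of 6, summed to 1769 and 2323 TPM in cortex and 3363 and 2912 in SCN, and the 5 choroid plexus and ependyma markers measured, of 6, to 1868 and 2531 in cortex and 187 and 35.1 in SCN. *Ttr* alone made 1837 and 2505 TPM of the latter sums in cortex and 165 and 24.1 in SCN, while *Foxj1* had 6.91 and 8.46 in cortex and 8.62 and 7.49 in SCN. No marker of either list was at 0 in a brain library, and their part in the result was not tested.

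Paralog pairs showed where members departed from uniformity. In each pair the share is that of the second gene in the summed TPM, which corrects for length. *Rpl22l1* made 47.6% and 48.0% of the *Rpl22* pair in wild-type and *duper* cortex and 58.9% and 58.3% in SCN, compared with 52.5% and 58.7% in liver. SCN exceeded cortex by 10.9 percentage points with the genotypes close together, whereas in liver the genotypes differed by more than liver and brain did (2.42 points). The *Rpl22* transcript has 2126 bases and those of *Rpl22l1* 574 and 492, so shares of counts were lower, at 14.0% to 20.6%, with SCN again above cortex.

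*Rps27l* made 6.70% and 5.37% of the summed S27 genes in wild-type and *duper* cortex and 8.14% and 5.67% in SCN, against 18.5% and 15.1% in liver. Liver exceeded brain by 10.3 points in mean, and the share was lower in *duper* in each tissue. *Rpl7l1*, a relative of *Rpl7* that acts in ribosome assembly, made 10.1% and 9.10% of its pair in cortex and 7.59% and 7.99% in SCN, compared with 8.91% and 8.93% in liver, a narrow range. *Rpl3l* made at most 0.0395% of its pair, and *Rpl10l* none. For the pairs of *Rpl26*, *Rpl39* and *Rpl36a* no share was computed here.

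Transcripts of some members changed share between libraries, and those of *Rps24* did so at a fairly even level of the gene in TPM. Of the 80 members, 67 had 1 transcript in the tables and 13 had several. *Rps24*, a small subunit gene known for alternative splicing of short 3′ exons, had 6 transcripts, which fall into 3 pairs by length: 562 and 565, 582 and 585, and 600 and 603 bases. All 6 carry noncoding accessions in the RefSeq table used. At the gene level *Rps24* was fairly even in TPM, at 864, 975, 1262, 1161, 842 and 872 in wild-type cortex, *duper* cortex, wild-type SCN, *duper* SCN, wild-type liver and *duper* liver. With TMM its log2 fold change of liver over brain was 1.23 (SE 0.12), near the members' median of 1.28.

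The shortest *Rps24* pair made 0% and 2.30% of the gene's TPM in wild-type and *duper* cortex and 0.657% and 1.27% in SCN, against 33.9% and 35.8% in liver. A count of 0 of 1007 in wild-type cortex allows a share of counts up to 0.366% (95% Clopper-Pearson upper bound). The longest pair went the opposite way, with 55.2% and 42.6% in cortex and 21.3% and 24.96% in SCN, compared with 0.430% and 0.647% in liver. The middle pair made 44.8% to 78.1% in all libraries. The longest pair was therefore abundant in cortex, lower in SCN and nearly missing in liver, in both genotypes, and liver and brain did not overlap for either outer pair. The longest pair exceeded the shortest by 38 bases and the middle pair exceeded it by 20. How reads were shared among such similar transcripts was decided by the quantifier.

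**Figure D5:**
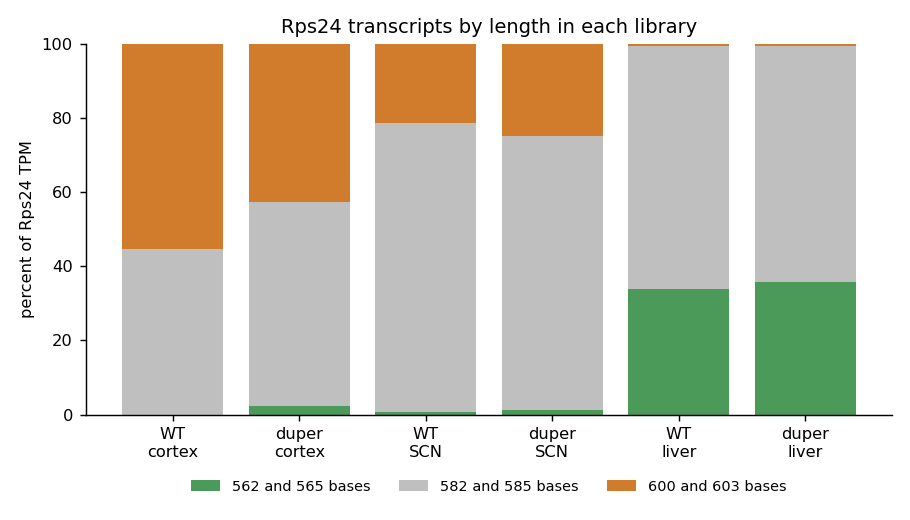
Percent of *Rps24* TPM in the 3 length pairs of its 6 transcripts, in each library. The longest pair fell from 55.2% and 42.6% in cortex to 0.430% and 0.647% in liver, where the shortest pair made 33.9% and 35.8%.

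The 3 other members whose transcript shares ranged most between libraries were *Rpl32*, *Rpl38* and *Rps18*. *Rpl38*, a large subunit protein known for its part in translating Hox mRNAs, had a transcript of 382 bases that made 63.7% and 65.9% of its TPM in wild-type and *duper* cortex and 62.3% and 66.1% in SCN, against 83.6% and 85.3% in liver, higher in liver without overlap. For *Rpl32*, the transcript of 606 bases made 49.4% and 42.0% in cortex and 52.0% and 67.2% in SCN, compared with 60.2% and 51.4% in liver. Both cortex libraries lay below the other 4, and the genotypes were not separated. The shorter transcript of *Rps18* made 0.00330% of its TPM in wild-type cortex and 21.6% in *duper* cortex. The values were 9.66% and 10.5% in SCN, against 2.13% and 8.16% in liver. It was higher in *duper* in each tissue, with no order by tissue.

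Other genes of the translation machinery were counted over whole lists. For genotype, none of the lists held a call: 0 of 4 ribosomal proteins outside the symbol rule, 0 of 17 elongation and oligopyrimidine mRNA genes, 0 of 37 ribosome biogenesis genes, 0 of 15 of RNA polymerase I, 0 of 18 of the TOR pathway, 0 of 7 transcription factors of ribosomal protein genes, and 0 of 76 mitochondrial ribosomal proteins, by edgeR. Among all genes the same test called 1 of 18275 (0.00547%), so 0 calls does not set these lists apart. In these lists only 1 gene had an unadjusted p under 0.05 by edgeR, against 606 of 18275 among all genes. That gene was *Mycn* (log2 fold change −1.35, SE 0.53, adjusted p = 0.998 by edgeR), a MYC family activator of growth genes. DESeq2 counts for these lists were not computed.

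Between liver and brain with TMM, the ribosomal proteins outside the rule (4 of 4) and the mitochondrial ribosomal proteins (68 of 76 higher, 1 lower) were called higher, with medians of 1.51 and 1.08 against 1.28 for the members. Among all genes 33.3% were called higher and 34.1% lower. The 17 elongation and oligopyrimidine mRNA genes had 12 higher and 3 lower, with *Eef1a2*, the elongation factor of neurons and muscle, lower by a log2 fold change of −11.8 (SE 0.27) and *Tpt1* higher by 2.93 (SE 0.17). Ribosome biogenesis genes had 16 of 37 higher and 2 lower with a median of 0.38, below that of the members. RNA polymerase I genes had 7 of 15 higher and 1 lower, the TOR list 5 of 18 higher and 4 lower, and the transcription factors 4 of 7 higher and 1 lower. As for the members, these directions depend on the scaling.

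Between SCN and cortex, where 3.91% of all genes were called higher and 7.28% lower, the lists had smaller medians than the members. They were 0.25 for the elongation and oligopyrimidine mRNA genes (1 of 17 called higher, *Eef1g* at 0.67), 0.06 for ribosome biogenesis (0 of 37), 0.04 for RNA polymerase I (0 of 15) and 0.13 for mitochondrial ribosomal proteins (0 of 76), against 0.41 for the members. The 4 ribosomal proteins outside the rule had a median of 0.25 and 0 calls. Of the TOR list, 1 of 18 was called, *Rps6ka3*, a ribosomal S6 kinase, which fell by 1.31 on the log2 scale (SE 0.14). Of the 7 transcription factors, *Sp1* rose (0.64, SE 0.15), and *E2f1* and *Tbpl1* fell (−1.71, SE 0.36, and −0.73, SE 0.18).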

How the data were processed

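The authors prepared stranded poly(A) libraries, sequenced paired reads of 100 bases, quantified them with kallisto against MesAur2.0 (its version is not given in the sources used here) and summed transcripts to genes by tximport. The deposited gene tables hold estimated counts, without normalization, and TPM, and each library also has a table of 67818 transcripts. All 480 member values equalled their transcript sums within 0.1%. Transcript lengths came from these tables and gene spans from RefSeq BCM_Maur_2.0, in which all 67818 transcript names matched.

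Estimated counts were rounded and tested for all genes with edgeR 4.0.16 in R 4.3.3 (TMM, filterByExpr by genotype, quasi-likelihood F test, tissue and genotype in the model), so 18275 genes entered. A call needed a log2 fold change beyond 0.58 in either direction with a p, adjusted by Benjamini-Hochberg, below 0.05, and an SE is the absolute log2 fold change over the square root of F. With 1 library per genotype and tissue, p-values rest on the spread around additive effects of tissue and genotype. Alternatives were DESeq2 1.42.0 (the tool of the study) with size factors or length offsets, library size, other filters, limma 3.58.1 on log2(TPM + 1), no fold threshold and leaving out each library. Scaling to the members' total was added after seeing the data. Within-tissue ratios used a pseudocount of 1 (alternative 0.1). Fits were tested on simulated data. Python 3.11.15, numpy 2.4.6, pandas 2.3.3, scipy 1.17.1 and matplotlib 3.10.9 served the rest.

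The members, gene lists and tests were chosen with earlier results of these data known. Named genes were members called (if over 10, the 5 largest rises and falls), the 5 largest genotype rises and falls, the 5 highest and lowest levels, fixed paralog pairs, *Rps24*, *Cry1* and, per list, the largest differences. A planned description of promoter starts was not run, as no promoter sequences were used here. A gene that the rule also names is not reported here.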

Additional observations from a re-analysis of the deposited data

How the results depend on the processing

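Relative to wild type, the count of members called in *duper* was 1. It was 2 with DESeq2 (either setting) or without the expression filter, and 0 to 2 when a library was left out. Of all genes, the main test called 1 of 18275. DESeq2 called 41 and 40 of 21072 (size factors and length offsets), and 48 of 26140 were called without the filter. When a library was left out, 0 to 42 genes were called, with 0 without either cortex library. The log2 fold change of *Rps27* stayed between −2.75 and −2.58 over all alternatives, at −2.63 without either cortex library, where it no longer passed, and its sum with *LOC121134231* was 0.0070 to 0.31 over all alternatives and 0.0070 to 0.18 when a library was left out. *Rps15* ranged from −0.42 to 0.015 when a library was left out, at 0.013 and 0.015 without the wild-type or *duper* cortex library.

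Between liver and brain, members called fell from 72 to 13 (6 higher, 7 lower) with library size, 18 (2 higher, 16 lower) with limma on TPM and 12 (4 higher, 8 lower) on the members' total. Of 18275 genes, 12309 were called with TMM, and 13634, 14377 and 13724 under these 3 settings. The log2 fold change of *Rpl22* turned to −1.06, −1.41 and −1.12 under the same 3 settings, and that of *Rpl22l1* to −0.91, −1.27 and −0.96. When a library was left out, the members' median with TMM was 1.16 to 1.42. The summed level, −0.28 in TPM, was 0.022 as a percent of counts and 0.93 after TMM rescaling.

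Between SCN and cortex, 5 members were called, all higher, among 2045 of 18275 genes. DESeq2 called 10 members with either setting (2431 of 18031 and 2417 of 18538 genes), and library size 33 (2439 of 18275). There were 8 without the filter (2429 of 26140) and 9 with at least 10 counts in every library (1776 of 13593). Limma on TPM called 14 (2637 of 18275) and the members' total 2 (3893 of 18275). Fewer members were called without any 1 brain library, and 14 without either liver library. The summed level, 0.41 in TPM, was 0.60 in counts and 0.24 after TMM rescaling.

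Of the *duper* over wild-type values, TMM scaling moved the liver median from 0.11 to 0.29 and the SCN median from −0.045 to −0.062, and no filter gave 0.11 in liver. The summed level in SCN was −0.019 in TPM and −0.061 in counts, and in liver 0.14 in TPM and 0.31 after TMM rescaling. In shares of counts, the mean genotype difference of *LOC121134231* was 39.5 points in place of 29.6, and the liver minus brain differences of the shortest and middle *Rps24* pairs were 32.5 and 3.95 points in place of 33.8 and 1.68. For changes other than those by construction the cause was not tested. No paired analysis was possible because the libraries carry no replicate numbers beyond 1 per group, and tissue was already a term of the model. Depth limits the lower group of members, with as few as 23 counts in a library.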
